A study of Mus musculus with 8 samples.

Results

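The small leucine-rich proteoglycans are secreted matrix proteins, and 8 of their genes (Dcn, Lum, Ogn, Bgn, Fmod, Aspn, Prelp and Podn) were looked up by gene symbol in a table of cluster markers from mouse preadipocytes and differentiating adipocytes. Of these 8 genes, 6 (Bgn, Dcn, Prelp, Podn, Ogn and Fmod) had 41 entries, 1 for each cluster in which the gene was listed, out of 13337 entries for 3903 gene symbols in the whole table. Lum and Aspn had no entry in the table as used here, and are not described further by value.

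The cells were preadipocytes from the inguinal white fat of C57BL/6 mice, either wild type (WT) or lacking both HMGN1 and HMGN2 (double knockout, DKO), a pair of nucleosome-binding chromatin proteins. The 4 groups were WT day 0, DKO day 0, WT day 6 and DKO day 6 of induced browning, with 2 cultures in each and 8 captures in all. Differentiation medium, the same for both genotypes, held insulin at 0.5 μg/ml, dexamethasone at 5 μM, IBMX at 0.5 mM, T3 at 1 nM and rosiglitazone at 1 μM for the first 4 days, and afterwards insulin and T3 alone. The loss of HMGN1 and HMGN2 was present in all cells of the DKO mice from before culture, and how many animals supplied each culture was not given in the sources used here. The authors pooled the cells of all 8 captures into 12 clusters, numbered 0 to 11, so no value below belongs to a sample, a genotype or a day. There were therefore no replicates, no error between cultures could be given, and nothing was tested.

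Each entry gives 2 detection values, the percent of the cells in a cluster with at least 1 transcript of the gene counted and the same percent over all other cells. Detection says in how many cells a gene was seen and not how much RNA a cell held. Read depth and cell numbers per cluster were unknown from the table. A gene has no entry in a cluster where it missed the authors' minimum size of difference or of detection, so the lack of an entry does not mean 0.

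Small leucine-rich proteoglycans have a core protein built of repeated leucine-rich motifs, and most carry sugar chains such as chondroitin, dermatan or keratan sulfate. They bind collagen fibrils and set their spacing and thickness, and several also bind growth factors such as TGF-beta. The family is sorted into classes by sequence: decorin (Dcn), biglycan (Bgn) and asporin (Aspn) belong to class I, fibromodulin (Fmod), lumican (Lum) and PRELP (Prelp) to class II, osteoglycin (Ogn), also called mimecan, to class III, and podocan (Podn) to class V. In fat, fibroblast-like stromal cells and preadipocytes are known as a source of these proteins.

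Several of these genes lie side by side in the mouse genome. In the GENCODE M21 annotation of GRCm38, the same build (mm10) as the authors' reference, Prelp occupies chr1:133910304-133921414 on the minus strand, and Fmod follows at chr1:134037254-134048277 on the plus strand, 115839 bases away. Dcn (chr10:97479609-97518143, plus strand) is followed by Lum after 46984 bases. Ogn (chr13:49608046-49624501, plus strand) is the last of a row of 4 family genes that also holds Ecm2, Aspn and Omd, with gaps of 11653 to 15223 bases. Bgn lies at chrX:73483602-73495933 on the plus strand and Podn at chr4:108014791-108096445 on the minus strand. All are protein-coding. Prelp and Fmod both had entries, while Optc, 2304 bases from Prelp on its other side, had none, and neither did Lum beside Dcn or Aspn, Omd and Ecm2 beside Ogn.

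The sequences just before the starts of Prelp, Fmod, Podn and Ogn are shown because these are the 4 listed genes that were detected in a minority of cells. Any 2 of them had the same direction in every cluster where both were listed, 2 to 5 clusters for a pair, clusters 4 and 11 included. Of all entries, 97.9% were lower than the other cells in cluster 4 and 40.5% in cluster 11. Agreement in cluster 4 is thus not particular to these genes, and Fmod and Ogn shared clusters 4 and 11 alone. Each sequence is the run of 200 bases that ends 50 bases before a RefSeq start in GRCm38.p6, written 5′ to 3′ on the gene's own strand. Capitals mark matches, on either strand, to 5 short motifs. The search looked for the TATA box as TATAAA, for the CCAAT box by the letters of its name, and for the GC box as GGGCGG. The AP-1 site was searched as TGANTCA, which reads alike on both strands, and the hexamer that nuclear receptors bind as AGGTCA.
Prelp, chr1:133921452-133921651, minus strand: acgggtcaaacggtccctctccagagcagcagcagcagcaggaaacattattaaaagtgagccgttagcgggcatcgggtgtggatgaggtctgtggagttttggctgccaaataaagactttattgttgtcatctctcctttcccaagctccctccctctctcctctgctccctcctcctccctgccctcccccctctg
Fmod, chr1:134037004-134037203, plus strand: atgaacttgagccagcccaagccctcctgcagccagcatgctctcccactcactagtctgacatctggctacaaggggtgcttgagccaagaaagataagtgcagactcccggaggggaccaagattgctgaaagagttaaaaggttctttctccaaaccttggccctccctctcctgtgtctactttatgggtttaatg
Podn, chr4:108031037-108031236, minus strand, the downstream of 2 RefSeq starts and inside the gene as GENCODE draws it: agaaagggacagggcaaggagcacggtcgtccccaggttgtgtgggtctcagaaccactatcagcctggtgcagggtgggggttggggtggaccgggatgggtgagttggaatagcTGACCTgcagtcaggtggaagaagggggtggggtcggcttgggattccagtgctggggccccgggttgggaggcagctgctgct
Ogn, chr13:49607765-49607964, plus strand, inside an intron of Cenpp, which runs on the other strand: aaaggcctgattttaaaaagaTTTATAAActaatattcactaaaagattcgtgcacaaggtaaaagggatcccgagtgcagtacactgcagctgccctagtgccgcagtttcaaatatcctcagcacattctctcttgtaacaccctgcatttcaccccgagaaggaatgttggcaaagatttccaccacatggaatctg
The last 50 bases before each start were not searched, so a TATA box or other motif there would not have been found. What any match does was not tested. The windows of Prelp and Fmod held none of the 5 motifs. The Podn window held 1 nuclear receptor hexamer, on the opposite strand, a motif found in 11.4% of all 32851 windows of this kind. The Ogn window held 2 overlapping TATA box matches on opposite strands, 229 and 227 bases before the start, a motif found in 9.14% of windows. The window of Bgn also held none, and the window at the other Podn start held 2 GC boxes (24.6% of windows). The window of Aspn, not shown, held TATA box matches 207 and 178 bases before the start. It also held a CCAAT box at 229 bases (28.4% of windows). No motif was common to 2 of the 4 genes shown. The windows of Dcn and Lum were not analysed here.

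Bgn and Dcn were detected in most cells, and the other 4 genes in a minority. Over all cells, as solved from both detection values and the cluster shares, Bgn was detected in 93.4%, Dcn in 85.9%, Prelp in 40.3%, Podn in 33.7%, Ogn in 22.2% and Fmod in 14.7%. The values from the separate clusters of 1 gene differed by at most 0.102 percentage points, the widest being that of Dcn, so neighbours in this order differed by far more than the error of the solution. Bgn ranked 141st and Dcn 301st of the 3903 listed genes by this measure, Prelp 2335th, Podn 2657th, Ogn 3169th and Fmod 3517th. Detection depends on the length and abundance of each transcript's captured end as well as on depth, so the order is that of cells with a count and not of protein made.

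**Figure D1:**
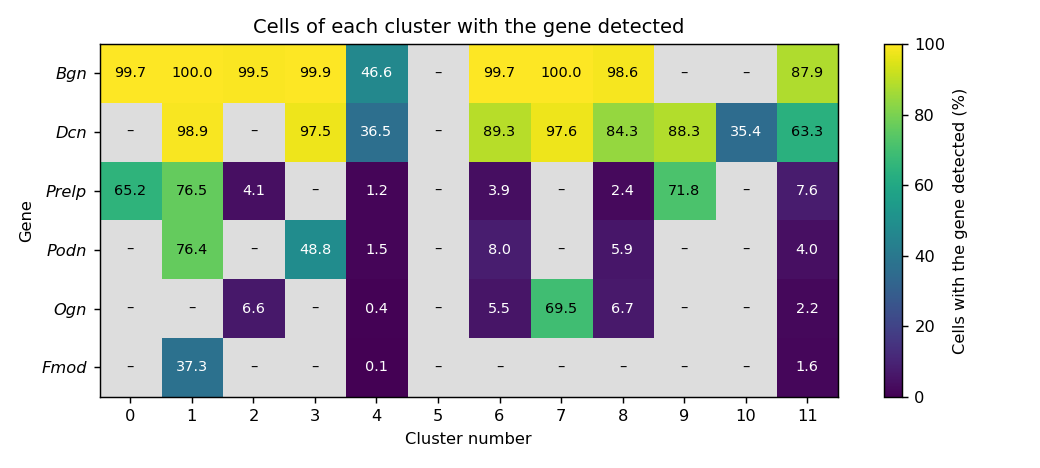
Percent of the cells of each cluster (columns, cluster number) in which each of the 6 listed genes (rows, from the most to the least widely detected) was counted; a dash on grey marks a cluster where the gene has no entry, which is not 0. Bgn and Dcn are high in nearly all clusters where they are listed, and Prelp, Podn, Ogn and Fmod are at 8.0% or less in every listed one of clusters 2, 4, 6, 8 and 11.

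Biglycan, the class I proteoglycan that also acts as a danger signal on Toll-like receptors, was detected in 99.7%, 100%, 99.5% and 99.9% of the cells of clusters 0, 1, 2 and 3, respectively. It was detected in 99.7% of cluster 6, in 100% of cluster 7 and in 98.6% of cluster 8. Among its 9 listed clusters, 4 and 11 alone were below the other cells, at 46.6% against 98.4% and at 87.9% against 93.5%. Clusters 5, 9 and 10 had no entry, and their share-weighted mean detection solved to 93.9% (93.7% to 94.2% over the listed clusters). With detection this close to all cells, a difference in amount between the clusters would not show in these values.

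Decorin, which binds collagen fibrils and TGF-beta, was detected in 98.9%, 97.6% and 97.5% of the cells of clusters 1, 7 and 3. Its detection was 89.3%, 88.3% and 84.3% in clusters 6, 9 and 8, and 63.3%, 36.5% and 35.4% in clusters 11, 4 and 10. It spanned a wider range than Bgn in the clusters outside 4 and 10, and its lowest value there was that of cluster 11, 63.3% against 86.2% of all other cells. The entries of cluster 8 (84.3% against 86.0%) and cluster 9 (88.3% against 85.7%) differed little in detection. In clusters 0, 2 and 5, which had no entry, the mean solved to 93.1% (93.0% to 93.3%). Dcn and Bgn differed in direction in 1 of the 7 clusters they shared, cluster 8.

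Prelp encodes a class II protein with a basic, arginine- and proline-rich end that binds heparan sulfate. It was detected in 76.5% of cells in cluster 1, 71.8% in cluster 9 and 65.2% in cluster 0, against 34.3%, 38.3% and 36.1% of the respective other cells. In clusters 11, 2, 6, 8 and 4 it was detected in 7.6%, 4.1%, 3.9%, 2.4% and 1.2% of cells, against 40.8% to 45.2% of the other cells. No listed cluster lay between 7.6% and 65.2%. The remaining clusters, 3, 5, 7 and 10, had a solved mean of 50.7% (50.6% to 50.9%). Among all genes listed in a cluster and ordered by the difference of detection, Prelp was the 14th highest of 729 in cluster 1, the 11th lowest of 1416 in cluster 6, the 17th lowest of 1133 in cluster 2 and the 33rd lowest of 1126 in cluster 8.

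Podocan, the class V member, was detected in 76.4% of cells in cluster 1 and 48.8% in cluster 3, against 26.7% and 31.9% of other cells. In clusters 6, 8, 11 and 4 it was detected in 8.0%, 5.9%, 4.0% and 1.5% of cells, against 34.1% to 37.1% elsewhere. Its difference of 49.7 points in cluster 1 was the 6th highest of the 729 genes listed there. The 6 clusters without an entry (0, 2, 5, 7, 9 and 10) had a solved mean of 32.6%, close to the 33.7% over all cells. Cluster 1 stood out for Podn and Prelp alike, at 76.4% and 76.5%, but cluster 3 was listed for Podn and not Prelp and clusters 0 and 9 for Prelp and not Podn.

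Osteoglycin, a class III proteoglycan first known from bone, was high in another cluster. It was detected in 69.5% of cells in cluster 7 against 18.9% of all others, a difference of 50.6 points and the 2nd highest of the 540 genes listed for cluster 7. In the other 5 listed clusters (8, 2, 6, 11 and 4) it was detected in 6.7%, 6.6%, 5.5%, 2.2% and 0.4% of cells, against 22.5% to 24.5% of the others. Clusters 0, 1, 3, 5, 9 and 10 had no entry and a solved mean of 28.1%, between those levels. Prelp, Podn and Fmod had no entry in cluster 7, whereas Bgn (100%) and Dcn (97.6%) did. Cells of cluster 7 were 6.60% of all cells by the solved shares.

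Fibromodulin, which binds collagen fibrils and shares a class with Prelp, was the least widely detected. It was seen in 37.3% of cells in cluster 1 against 11% of the others, in 1.6% of cluster 11 against 14.9%, and in 0.1% of cluster 4 against 16.3%. The other 9 clusters had no entry and a solved mean of 12.6%. Fmod and its chromosomal neighbour Prelp shared 3 clusters (1, 4 and 11) and had the same direction in all 3. Of all entries, 97.9% were lower than the other cells in cluster 4, 40.5% in cluster 11 and 27.2% in cluster 1. Whether their position plays a part was not tested.

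**Figure D2:**
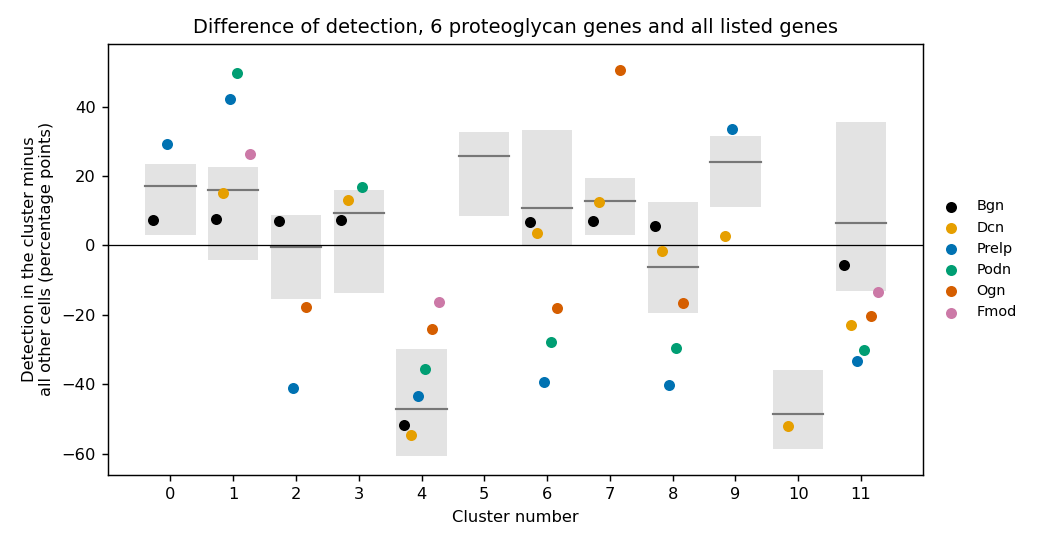
Difference of detection between the cells of a cluster and all other cells (vertical axis, percentage points) by cluster number (horizontal axis); points are the 6 listed proteoglycan genes, grey boxes span the lower to the upper quartile of all genes listed for that cluster and the grey line is their median. Ogn stands at 50.6 points in cluster 7, Podn and Prelp at 49.7 and 42.2 in cluster 1, and Prelp between -33.2 and -41.1 in clusters 2, 6, 8 and 11.

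Counted over all clusters, 10 of the 41 entries had detection at least 10 percentage points higher than in the other cells, beside 40.0% of all entries of the table, and 20 of 41 at least 10 points lower, beside 37.4%. The median difference was -5.6 points for these entries and 2.7 points for all entries. Clusters 4 and 10 were set apart because nearly every gene listed there was detected in fewer cells than elsewhere (97.9% and 99.9% of entries), with median detection of 10.8% and 8.1%. Without them, 10 of 34 entries were higher by at least 10 points, beside 50.4% of all entries, and 13 of 34 were lower, beside 22.4%, with medians of 4.6 and 10.2 points. Of the 34 entries, 8 belonged to Bgn in clusters where more than 90% of the other cells had it, so that a rise of 10 points was not possible there; among all entries the share with this limit was 7.43%. How much of the smaller share of higher entries comes from this limit was not tested. Entries of 1 gene in several clusters are not independent of each other, and no test was made of these shares.

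By cluster, the counts varied. In cluster 1, 4 of the 5 listed genes (Podn, Prelp, Fmod and Dcn) were higher by at least 10 points, beside 58.8% of all entries of that cluster, and the fifth, Bgn, was at 100%. The entries higher by at least 10 points were 2 of 3 in cluster 3 (Podn and Dcn, beside 48.7% of all entries there), 2 of 3 in cluster 7 (Ogn and Dcn, beside 59.8%), 1 of 2 in cluster 0 (Prelp, beside 66.0%) and 1 of 2 in cluster 9 (Prelp, beside 76.9%). The entries lower by at least 10 points were 2 of 3 in cluster 2 (beside 34.5% of all entries there), 3 of 5 in cluster 6 (beside 14.9%), 3 of 5 in cluster 8 (beside 45.6%) and 5 of 6 in cluster 11 (beside 28.7%). Cluster 11 was 1 of 2 clusters with an entry for each of the 6 genes, and each of the 6 was seen in a smaller percent of its cells than of the others. The other was cluster 4, with 6 of 6 lower by at least 10 points, beside 92.8% of its entries.

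The clusters where Prelp, Podn, Ogn or Fmod were listed below the other cells were those where Cd36 was seen in most cells. Prelp and Ogn were listed so in clusters 2, 4, 6, 8 and 11, Podn in 4, 6, 8 and 11, and Fmod in 4 and 11 alone. In cluster 4, 97.9% of all entries were lower. Cluster 10, also of low detection, had no entry for any of these genes. Cd36, a fatty acid receptor that rises in adipocytes, was detected in 68.4%, 69%, 78.2%, 87.7% and 99.8% of the cells of clusters 2, 4, 6, 8 and 11. In clusters 0, 1, 3, 5, 9 and 10 it was detected in 1.0% to 3.5% of cells, and its level in cluster 7, which had no entry, solved to 13.4%. Car3, another of the adipocyte markers, was at 61.7%, 62.1%, 71.5%, 72.4% and 94.6% of cells in clusters 2, 4, 6, 8 and 11. It was at 0.6% to 4.4% in all other clusters, a division as sharp as that of Cd36. Plin1 and Fabp4 divided the clusters less sharply. Plin1, which coats lipid droplets, was at 27.8%, 29.3%, 45.5%, 50.6% and 99.8% of cells in clusters 2, 4, 6, 8 and 11 and at 0.6% in cluster 1, and Fabp4, a fatty acid carrier, was at 98.5% to 100% in those 5 clusters but also at 92.6% in cluster 7. Of the 10 adipocyte markers, 6 of 6 listed were higher by at least 10 points in cluster 2, 7 of 10 in cluster 4, 6 of 6 in cluster 6, 6 of 7 in cluster 8 and 9 of 10 in cluster 11. The share of all entries higher by 10 points was not counted in these clusters. Over all genes listed, the median difference there was -0.5, -47.2, 10.7, -6.2 and 6.6 points, in the same order. The upper quartile was 8.7, -29.8, 33.1, 12.5 and 35.45 points, so many other genes were also higher in clusters 6 and 11. Every listed value of Prelp, Podn, Ogn and Fmod in the 5 clusters with Cd36 in at least 68.4% of cells was at or under 8.0%. Every listed value in the other clusters was at or above 37.3%. Entries exist only past the authors' minimums, which tend to leave out values between these levels. The solved means of the unlisted clusters were 50.7% for Prelp, 32.6% for Podn, 28.1% for Ogn and 12.6% for Fmod. The gap therefore holds for listed values only. This division of clusters by Cd36 was made after the values had been seen. Bgn was detected in 98.6% to 99.7% of cells in clusters 2, 6 and 8, above the other cells, but was below them in clusters 4 and 11. Dcn was at 89.3% and 84.3% in clusters 6 and 8 and at 63.3% in cluster 11.

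**Figure D3:**
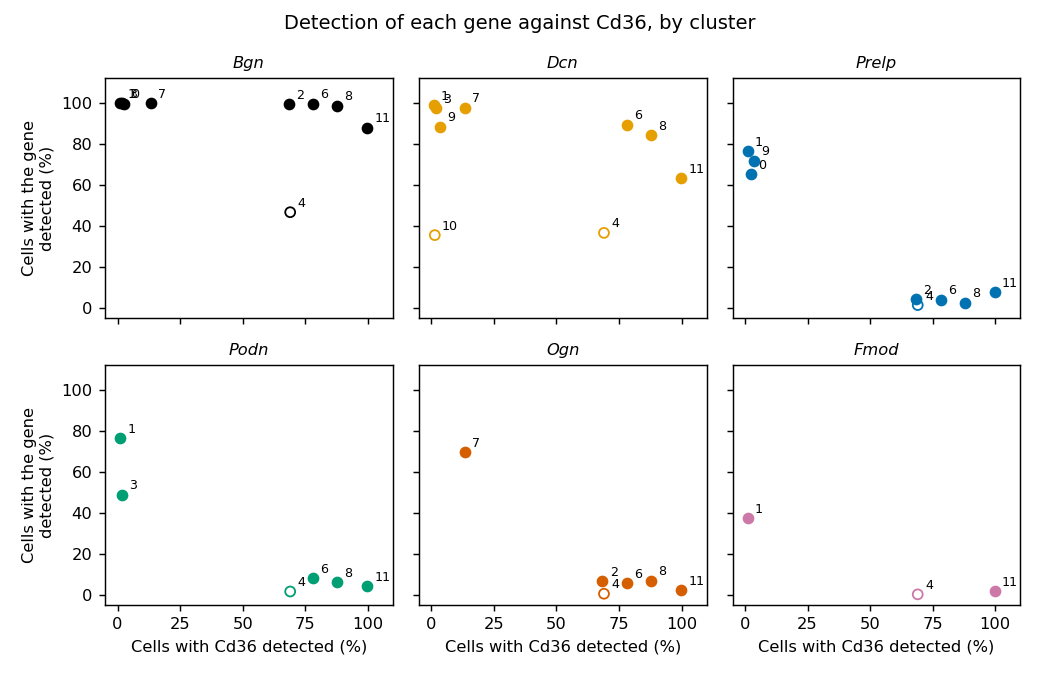
Percent of cells with each of the 6 genes detected (vertical axes) against percent of cells with Cd36 detected (horizontal axes), 1 point for each cluster with an entry and labelled with the cluster number; open circles are clusters 4 and 10, and the Cd36 value of cluster 7 was solved from the others. Prelp, Podn, Ogn and Fmod lie at 8.0% or below in each of their listed clusters with Cd36 at 68.4% or above. Bgn is at 87.9% or above in all its listed clusters but cluster 4.

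Cell division did not divide the clusters in the same way. Mki67, a protein of cycling cells, was detected in 92.0% of cells in cluster 6 and 91.2% in cluster 9. Prelp was detected in 3.9% of cells of the first and 71.8% of the second, and Cd36 in 78.2% and 3.5%. Dcn was close in both, at 89.3% and 88.3%. Cluster 5, with Mki67 in 78.6% of cells, had no entry for any of the 6 genes.

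Markers of other cell types were examined beside these values. None of the immune (5), endothelial (4) and glial (4) markers had an entry; the authors had removed such cells before clustering. Of the smooth muscle and pericyte markers 3 of 5 had entries, Acta2, Tagln and Pdgfrb, while the more restricted Myh11 and Rgs5 had none. Acta2 moved with Prelp, at 97.0% of cells in cluster 0, 93.1% in cluster 1 and 97.7% in cluster 9, and at 11.6%, 23.2%, 5.4% and 6.7% in clusters 2, 6, 8 and 11. It was also at 98.1% in cluster 5, where Prelp had no entry. Tagln ranged from 95.0% to 97.8% in clusters 0, 1 and 9 and from 4.9% to 20.9% in clusters 2, 6, 8 and 11, and Pdgfrb was at 88.6% in cluster 1 and 12.4% in cluster 11. Of 6 tendon and cartilage markers, Comp had entries, at 42.7% of cells in cluster 1 against 4.2% of others, and Tnmd, Scx, Sox9, Cilp and Acan had none. The part of these markers in the pattern of the proteoglycan genes was not tested. Of the preadipocyte markers 5 of 8 had entries. In cluster 1 all 3 listed were higher by at least 10 points, beside 58.8% of all entries there. In cluster 11, 4 of 5 were lower by at least 10 points, beside 28.7% of all entries there. F3 was at 38.1% against 76.8%, while Itgb1 was at 87.8% against 86.6%. They did not move together in the other clusters: Pdgfra was at 79.5% in cluster 2 against 62.3%, and Ly6a at 81.7% in cluster 8 against 74%, while F3 was lower in both.

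Genes with a profile most like each member were sought by Pearson's r of detection across shared clusters other than 4 and 10, with at least 6 clusters required. Bgn, Dcn and Prelp had enough entries. Cemip, which takes part in the breakdown of hyaluronan, was nearest to Prelp of 317 genes compared (r = 0.999 over 6 clusters), at 61.4% of cells in cluster 1, 52.3% in cluster 0 and 0.9% or less in clusters 2, 6, 8 and 11. Tubb2b, a tubulin, and Dkk2, a secreted modulator of Wnt signalling, came next (r = 0.998 and 0.997 over 6 clusters each). Nearest to Dcn of 165 genes were Pcolce, an enhancer of procollagen processing, with r = 0.998, Aebp1 with 0.994 and Rcn3 with 0.992, all over 6 clusters. Pcolce was at 98.3%, 96.9%, 89.7%, 97.5%, 84.0% and 58.1% in clusters 1, 3, 6, 7, 8 and 11, where Dcn was at 98.9%, 97.5%, 89.3%, 97.6%, 84.3% and 63.3%. Nearest to Bgn of 342 genes were Fbln2, a matrix fibulin (r = 0.999 over 6 clusters), Cd63 (0.991 over 8) and S100a6 (0.991 over 6). These clusters share cells and libraries, and a few clusters with extreme values set each r, so the likeness is a description. With ranks in place of values, 0 of the 3 nearest genes were retained for each of the 3 members.

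The other genes of the pathway were counted from fixed lists, outside clusters 4 and 10. Of all entries outside those 2 clusters, 50.4% were higher and 22.4% lower by at least 10 points. Of 27 genes that build or modify the sugar chains, 10 had entries, and 9 of their 19 entries were higher and 8 lower by at least 10 points. Csgalnact1, which starts chondroitin chains, was detected in 86.6% of cells in cluster 1 and 77.1% in cluster 3, against 27.5% in cluster 8 and 7.6% in cluster 11, the direction of Podn in each of these 4 clusters. Dse, which turns chondroitin into dermatan sulfate, the chain type of decorin and biglycan, was at 64.3% in cluster 1, 36.1% in cluster 8 and 37.6% in cluster 11. Ugdh, which makes a sugar precursor of these chains, was at 80.1% in cluster 2 and 87.2% in cluster 6 against 63.1% and 63.4% of other cells, and at 61.2% in cluster 11 against 65.2%. Chst15, a chondroitin sulfotransferase, was listed for a single cluster, 7, at 22.2% against 6.9%.

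All 16 collagens and other matrix partners had entries, of which 23 of 78 were higher and 15 of 78 lower, beside 50.4% and 22.4% of all entries. In cluster 1, 4 of the 11 listed partners were higher and 0 lower by at least 10 points, beside 58.8% of all entries there that were higher. Col1a1, Col1a2, Col3a1, Col5a2 and Fn1 were detected in 90.8% to 98.4% of the other cells. A rise of 10 points was therefore not possible for them, and the shares cannot be compared directly. Col14a1, a fibril-associated collagen, was at 39.8% of cells in cluster 1, 0.1% in cluster 8 and 0.0% in cluster 11. Fmod was at 37.3% in cluster 1 and 1.6% in cluster 11 but had no entry in cluster 8. These are too few shared clusters to call the profiles alike. Eln, elastin, was at 25.5% in cluster 1 against 8.1%. Fbn1, fibrillin, was at 97.8% in cluster 1 and 64.9% in cluster 8. Among the collagen VI chains, Col6a1 was at 98.8% in cluster 6 and 98.5% in cluster 8 against 82.2% and 82.5% of others, and Col6a3 was at 91.2% in cluster 11 against 68.9%. Col6a1 was also above the other cells in clusters 1, 2, 3, 7 and 9, by at most 13.9 points.

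The list of proteases that cut these proteins or collagen also held Pcolce, an enhancer of procollagen processing and not a protease. It had entries for 7 of 10 genes, Pcolce among them. Of these entries, 13 of 36 were higher and 12 of 36 lower, beside 50.4% and 22.4% of all entries. All 5 genes of this list with an entry in cluster 1 were higher by at least 10 points, beside 58.8% of all entries there. All 7 with an entry in cluster 11 were lower, beside 28.7%. Pcolce was counted in both. Adamts5, an aggrecanase, was at 92.9% of cells in cluster 1, 19.4% in cluster 8 and 11.2% in cluster 11. Mmp3 was at 87.7%, 19.5% and 17.8% in the same clusters. Mmp14 was at 94.0% in cluster 1 and 21.6% in cluster 11.

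Of 15 growth factors and receptors that these proteoglycans are known to bind or act on, 11 had entries. Of these entries, 19 of 49 were higher and 8 of 49 lower, beside 50.4% and 22.4% of all entries. Tgfbr2, a TGF-beta receptor, was at 90.6%, 89.3% and 88.8% in clusters 2, 6 and 8, where Prelp was at 4.1%, 3.9% and 2.4%, and at 58.9% in cluster 0, where Prelp was at 65.2%, but in cluster 11 both were below the other cells. Egfr, which decorin can bind, was at 93.7% in cluster 2, 69.2% in cluster 1 and 47.7% in cluster 11. The ligand Tgfb1 was at 13.9% in cluster 8 and 7.2% in cluster 11, against 32.1% and 31.4% of others. Ccn4, a matricellular protein, ran with Prelp, at 84.0% in cluster 0, 82.0% in cluster 1 and 5.4% in cluster 8.

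Other proteoglycans, outside the leucine-rich family, had entries for 12 of 19 genes and did not share 1 profile. Of these entries, 18 of 40 were higher and 17 of 40 lower, beside 50.4% and 22.4% of all entries. Versican (Vcan), a large hyaluronan-binding proteoglycan, was at 97.3%, 99.2% and 96.3% of cells in clusters 2, 6 and 8 and at 52.5% in cluster 1, opposite in direction to Prelp in each of these 4, although in cluster 9 both were above the other cells. Prg4, lubricin, was at 65.8%, 67.5% and 76.7% in clusters 2, 6 and 8 and at 8.2% in cluster 0. Sdc2, a cell-surface syndecan, ran with Podn, at 85.2% in cluster 1, 71.4% in cluster 3 and 22.5% in cluster 11. Srgn, serglycin, was listed for cluster 1 alone, at 28.3% against 5.2%. Of the 9 other small leucine-rich family genes (Ecm2, Kera, Omd, Epyc, Optc, Chad, Nyx, Tsku and Podnl1), 0 had an entry.

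**Figure D4:**
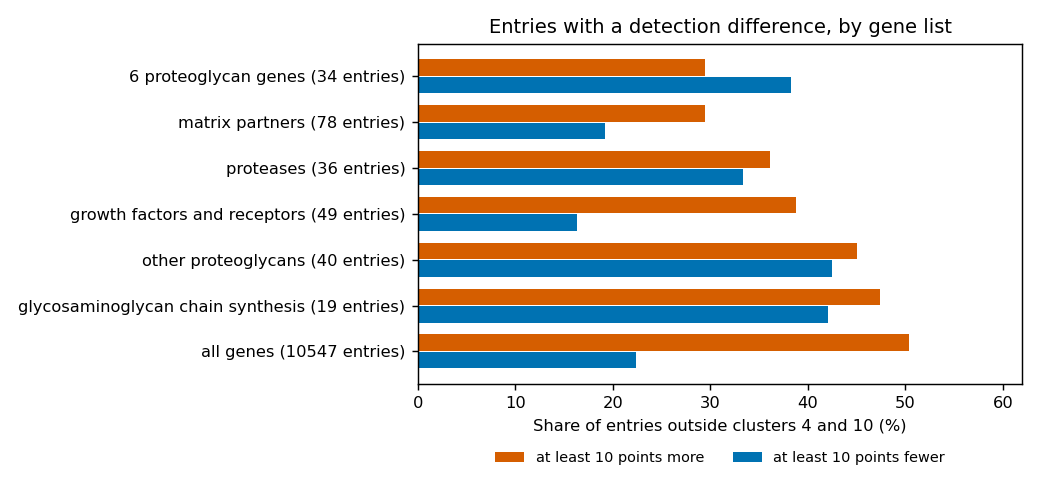
Share of entries outside clusters 4 and 10 (horizontal axis, percent) with detection at least 10 points higher (orange) or lower (blue) than in all other cells, for the 6 proteoglycan genes, 5 lists of related genes and all genes (rows, with the number of entries). The proteoglycan genes have 10 of 34 entries higher and 13 of 34 lower, and all genes have 50.4% higher and 22.4% lower. The protease list also holds Pcolce, which is not a protease.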

How the data were processed

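Single-cell RNA was measured by 3′ droplet capture in 8 samples (WT and DKO, day 0 and day 6, 2 cultures each), grouped by the sample labels. Reads had been mapped by the authors to mm10 (Cell Ranger 6.0.0, per the labels and the study's methods) and brought to equal depth. In Seurat the authors filtered and log-normalized cells, took out endothelial, glial and immune cells, and compared each of 12 clusters with all other cells. Removal of doublets was not described, and doublets could not be looked for here. The deposited table holds, per gene and cluster, 2 detection values, each the fraction of cells in which the gene was counted, inside and outside the cluster, printed here as percents. Its fold changes, p-values and adjusted p-values are the authors' own comparisons and were not used. The larger deposited fraction was never under 10.1%. The number of unused columns with values per sample was 0, and depth per sample was unknown.

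Cluster shares were solved by least squares in Python 3.11.15 with numpy 2.4.6 and pandas 2.3.3 from the 10 genes listed in all 12 clusters, since a gene's detection over all cells must be equal from every cluster. The solution was tested on simulated data. Values were called equal within 0.2 percentage points, and a difference was counted from 10 points. Genes named beyond the members were those of fixed lists and the 3 most alike in detection per member. Members and lists were chosen with earlier results of these data known. Promoter windows came from RefSeq, where 6 of the 8 members matched.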

Additional observations from a re-analysis of the deposited data

How the results depend on the processing

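No paired analysis was possible because all values come from pooled cells and no result rests on a test, and for the same reason no replicate could be left out. The count of 10 entries higher by at least 10 points became 17 of 41 at a minimum of 5 points (beside 46.7% of all entries), 6 at 20 points (28.3%) and 17 with an odds ratio of detection of at least 2 (45.2%). The count of 20 entries lower by at least 10 points became 13 of 34 where the larger detection had to reach 25% (beside 34.9% of all entries) and 13 of 34 without clusters 4 and 10 (22.4%). Of the 3 genes most like Bgn, and of the 3 most like Dcn, 0 were among the nearest 3 with clusters 4 and 10 included and 0 with Spearman's correlation. Of the 3 most like Prelp, 0 were among the nearest 3 with Spearman's correlation. The other 42 alternative values, among them each cluster share, each member's detection over all cells and its cluster with the largest difference, moved by no more than 0.2 percentage points, kept the same cluster, or, for the counts, stayed within 1.5 times; of the 3 genes most like Prelp, 2 remained with clusters 4 and 10 included. The table limits these results to entries past the authors' minimums, to detection without amounts, and to cells pooled over genotype and day, so neither a genotype nor a day effect on these genes could be seen.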
